A study of Mus musculus with 2 samples.

Results

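The cells described here were 208 macrophages from healing mouse tendon that carried at least 6 UMIs of the cell cycle genes Top2a, Mki67, Cenpf and Ube2c. A UMI (unique molecular identifier) marks 1 captured RNA molecule. They were 77 of 1480 macrophages in the TrkA F592A library and 131 of 2244 macrophages in the TrkA WT library, and 208 of 20036 barcodes kept as cells in both. A barcode was kept with at least 1000 UMIs, at least 500 genes and at most 15% mitochondrial UMIs if it was absent from the other library. It was a macrophage if Col1a1, Col1a2 and Col3a1 made up less than 1% of its UMIs, C1qa, C1qb and C1qc held at least 10 UMIs per 10000, and Csf1r had at least 1 UMI. The cells were thus chosen by the measured levels of these genes, which are given as a description. The whole set is called gated macrophages below, because only some of its cells carried more of the cell cycle programme than Mki67.

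Each library was made by droplet capture from the injured tendon area of 3 pooled mice, 12 weeks old, at 14 days after injury. The F592A library came from mice with the F592A point mutation of TrkA, a receptor tyrosine kinase for nerve growth factor, and its title names the inhibitor INMPP1, a bulky compound that blocks kinases opened by such a mutation. The WT library is titled as the control, and no label says if its mice were given INMPP1. The mutation, the compound and the blocked kinase therefore cannot be told apart. With 1 library for each genotype there was no test, and every 95% interval covers counting error only.

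Macrophages of injured tissue derive from recruited monocytes and from resident cells, and both can divide in place. Their survival and division depend on Csf1, the growth factor whose receptor is Csf1r, and on D-type cyclins that start the cycle. E2F factors then switch on genes of DNA replication in S phase, and a later wave of genes for chromosome condensation, the spindle and cell division follows in G2 and mitosis. Of the gate genes, Top2a untangles DNA before chromosomes separate, Mki67 coats mitotic chromosomes, Cenpf binds the kinetochore, and Ube2c passes ubiquitin to proteins destroyed at the end of mitosis.

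The promoters of the gate genes are shown because they carry the letters known from genes of the G2 and mitosis wave. CCAAT is the box bound by NF-Y, and TTTGAA is the core of the element through which the DREAM complex silences such genes outside the cycle. Clspn, a replication checkpoint protein, is shown beside them as an example from the S phase list. It was picked by its values, since its smaller log2 ratio over other macrophages was the highest among genes of that list with an E2F-type match (TTTCGCGC, TTTGGCGC, TTTCCCGC or TTTGCCGC). Each sequence runs 5′ to 3′ on the gene's strand over 280 bases, 250 before and 30 after the RefSeq start on GRCm38.p6, with matches on either strand in capitals.
Mki67: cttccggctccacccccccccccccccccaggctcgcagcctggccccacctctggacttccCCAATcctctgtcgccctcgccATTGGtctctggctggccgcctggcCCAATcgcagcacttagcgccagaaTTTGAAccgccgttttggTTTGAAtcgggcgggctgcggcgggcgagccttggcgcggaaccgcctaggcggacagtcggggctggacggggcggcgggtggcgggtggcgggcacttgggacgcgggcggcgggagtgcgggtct
Top2a: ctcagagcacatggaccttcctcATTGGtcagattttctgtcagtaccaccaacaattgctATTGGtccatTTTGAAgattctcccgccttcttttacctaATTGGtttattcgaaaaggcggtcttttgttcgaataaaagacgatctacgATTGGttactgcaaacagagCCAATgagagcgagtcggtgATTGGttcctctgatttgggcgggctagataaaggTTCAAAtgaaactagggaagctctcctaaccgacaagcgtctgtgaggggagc
Cenpf: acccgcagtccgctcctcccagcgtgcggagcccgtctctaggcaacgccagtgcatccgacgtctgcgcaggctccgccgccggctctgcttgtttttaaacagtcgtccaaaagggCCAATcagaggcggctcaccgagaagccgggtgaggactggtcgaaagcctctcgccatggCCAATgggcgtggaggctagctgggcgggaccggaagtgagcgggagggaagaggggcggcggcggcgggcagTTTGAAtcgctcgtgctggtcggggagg
Ube2c: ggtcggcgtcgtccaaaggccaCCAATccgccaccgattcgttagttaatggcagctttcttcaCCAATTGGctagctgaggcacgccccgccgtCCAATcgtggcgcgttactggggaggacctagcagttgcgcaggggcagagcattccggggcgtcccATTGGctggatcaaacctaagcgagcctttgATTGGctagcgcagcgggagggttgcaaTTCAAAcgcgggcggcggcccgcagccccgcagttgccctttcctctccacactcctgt
Clspn: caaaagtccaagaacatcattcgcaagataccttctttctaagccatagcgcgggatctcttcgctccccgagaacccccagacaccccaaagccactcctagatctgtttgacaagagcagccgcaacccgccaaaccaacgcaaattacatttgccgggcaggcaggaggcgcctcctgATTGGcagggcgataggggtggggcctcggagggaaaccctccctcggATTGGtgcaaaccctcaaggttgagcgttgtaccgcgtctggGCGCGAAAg
The windows were Mki67 chr7:135716350-135716629 on the minus strand, Top2a chr11:99024160-99024439 on the minus strand, Cenpf chr1:189688057-189688336 on the minus strand, Ube2c chr2:164769679-164769958 on the plus strand and Clspn chr4:126556730-126557009 on the plus strand. Mki67 held 3 matches of CCAAT and 2 of TTTGAA, Top2a held 6 and 2, Cenpf held 2 and 1, and Ube2c held 6 and 1, where 1 pair of CCAAT matches overlapped. In windows of 300 bases, both CCAAT and TTTGAA occurred in 4 of 4 gate genes and in 32 of 52 windows of the G2 and mitosis list (61.5%), against 4 of 39 windows of the S phase list (10.3%) and 6.95% of all 32851 windows. The E2F-type letters ran the other way, with 13 of 39 windows of the S phase list (33.3%), 2 of 52 of the G2 and mitosis list (3.85%), none of the gate genes and 2.26% of all windows. A match is a description of the letters only.

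The F592A library held 10677 barcodes and 181472230 UMIs, and the WT library held 14868 barcodes and 222874195 UMIs. They shared 764 barcodes, of which 113 F592A and 114 WT barcodes passed the quality limits and were left out. Gated macrophages had more UMIs per cell than the macrophages that missed the gate (other macrophages). Their median was 19580 UMIs against 13475 in F592A and 16042 against 10442 in WT, and the gate is an absolute count. Their summed UMIs came to 1569600 in F592A and 2299527 in WT. Gm42418, a gene that overlaps a ribosomal RNA repeat, took 14.0% of them in F592A and 6.50% in WT.

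Macrophage identity genes that the rule did not use were present in both libraries. Levels are given in CPM, counts per 1000000 of the group's summed UMIs. The 25 genes of this list summed to 14439 CPM in F592A and 15218 CPM in WT gated macrophages, against 17336 and 18961 CPM in the other macrophages of the same libraries. In stromal cells past the same cell cycle gate they summed to 490 CPM in F592A and 346 CPM in WT. Of these 25 genes, none was at least 1.5-fold higher or lower in gated than in other macrophages in both libraries, beside 9.41% higher and 1.77% lower among all 8360 measured genes (at least 100 UMIs over the compared groups). Listed markers of other blood cells were low in sum. The 13 neutrophil genes summed to 36.3 CPM in F592A and 29.1 CPM in WT gated macrophages. Other macrophages had 81.0 and 124 CPM of them. The 12 dendritic cell genes summed to 30.6 and 30.9 CPM, a level like the 31.5 and 28.2 CPM of other macrophages. The 20 lymphocyte and mast cell genes summed to 14.0 and 8.26 CPM, against 21.0 and 27.2 CPM in other macrophages. The C1q genes, which the rule used, had a median of 85.8 UMIs per 10000 in F592A and 101 in WT gated macrophages, against 90.7 and 108 in other macrophages. Scrublet called 1 F592A and 4 WT gated macrophages doublets (1.30% and 3.05%), against 1.14% of F592A and 0.947% of WT other macrophages.

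The cycling part of the label held for only some of the cells. Mki67 had UMIs in every gated macrophage, whereas Top2a, Cenpf and Ube2c together had 0 UMIs in 35 of 77 F592A and 52 of 131 WT cells. A split at 2 UMIs of these 3 genes, chosen after the values were seen, gave 40 F592A and 70 WT multi-gene members with at least 2 UMIs and 37 F592A and 61 WT Mki67-led members with 0 or 1. Mki67-led members had a median of 7 Mki67 UMIs in both libraries (6 to 17 in F592A, 5 to 14 in WT). Multi-gene members had a median of 15.5 (3 to 59) in F592A and 10.5 (2 to 41) in WT. At the edge of the gate, 12 F592A and 28 WT macrophages had exactly 6 gate UMIs and 12 F592A and 31 WT macrophages had 5. Those at 6 had a median depth of 18246.5 UMIs in F592A and 12125.5 in WT, and those at 5 had 15542.5 and 11665.

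**Figure D1:**
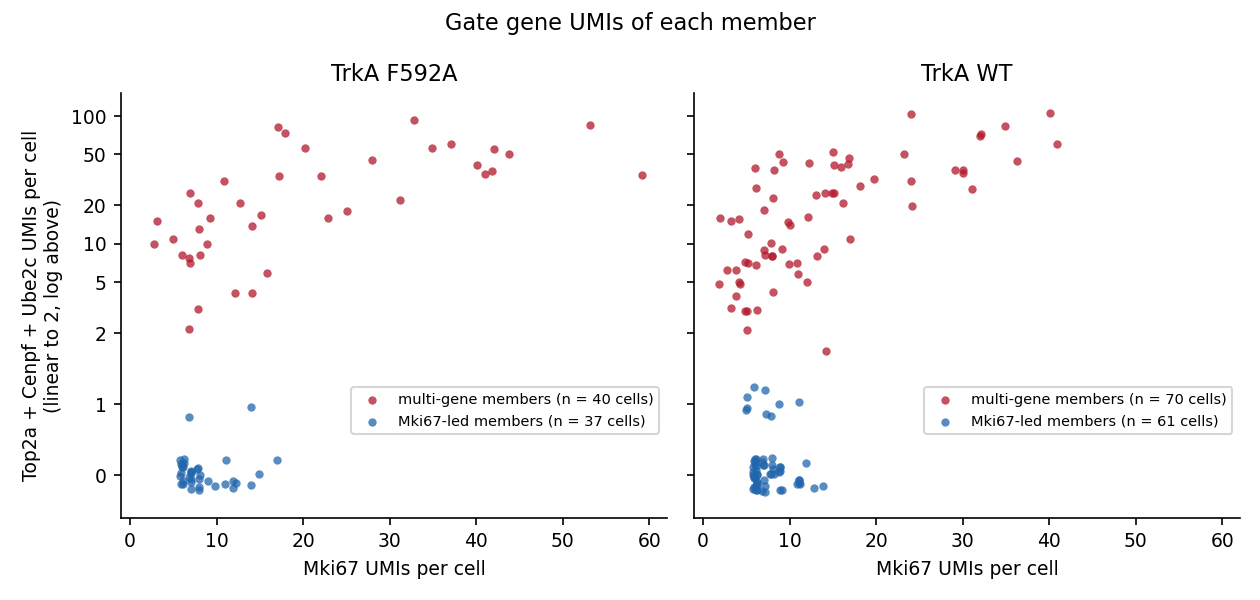
Mki67 UMIs per cell (x axis) against the summed Top2a, Cenpf and Ube2c UMIs (y axis, linear to 2 and log above) in each gated macrophage of TrkA F592A (left) and TrkA WT (right), with points jittered by less than 1 UMI. Red points are multi-gene members (40 F592A, 70 WT) and blue points Mki67-led members (37 F592A, 61 WT), which lie along the bottom at 6 to 17 and 5 to 14 Mki67 UMIs.

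The levels of the gate genes, which set both the gate and the split, are given as a description. Mki67 stood at 849 CPM in F592A and 671 CPM in WT multi-gene members, and at 515 CPM in F592A and 520 CPM in WT Mki67-led members. Top2a stood at 664 CPM in F592A and 646 CPM in WT multi-gene members, while Mki67-led members had 0 CPM in F592A (upper limit 6.07 CPM) and 7.93 CPM in WT. Other macrophages had 42.2 CPM of Mki67 in F592A (95% Poisson interval 39.4 to 45.2) and 58.6 CPM in WT (55.6 to 61.8), but only 3.34 CPM of Top2a in F592A and 4.30 CPM in WT. Cells with a UMI showed the same order, since 30.6% of other macrophages in F592A and 35.1% in WT had a Mki67 UMI, and 3.78% and 4.21% had a Top2a UMI. The same share of Mki67 in stromal cells outside the gate was 3.22% in F592A and 5.08% in WT, although those cells were deeper (medians of 24077 and 21652 UMIs), and in neutrophils it was 4.55% and 2.04% at medians of 3066.5 and 2502.5 UMIs. Stromal cells past the same gate had Mki67 and Top2a at like levels, with 371 and 435 CPM in F592A and 357 and 486 CPM in WT.

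**Figure D2:**
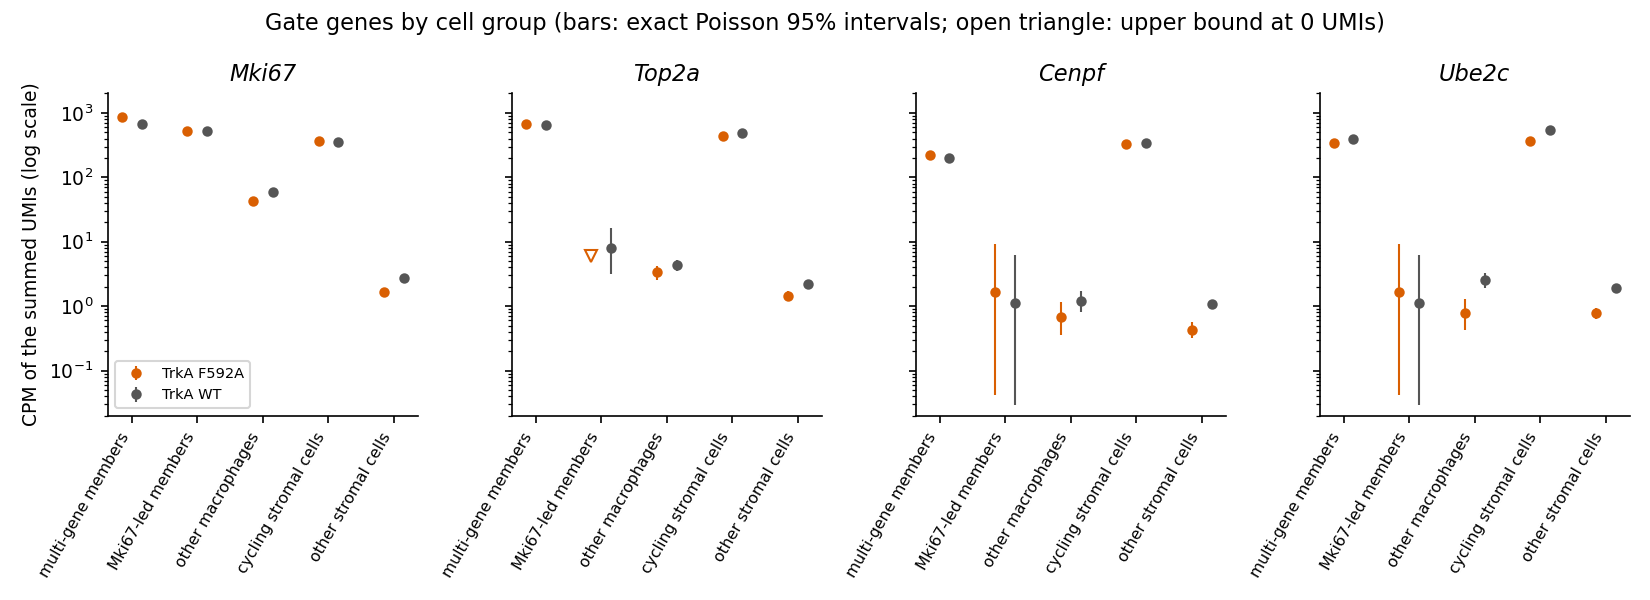
Level of each gate gene (y axis, CPM of summed UMIs, log scale) in 5 cell groups (x axis) of TrkA F592A (orange, left of each pair) and TrkA WT (grey), with exact Poisson 95% intervals and an open triangle for the upper limit at 0 UMIs. In other macrophages Mki67 lies at 42.2 and 58.6 CPM and Top2a at 3.34 and 4.30 CPM, while in stromal cells past the gate they lie at 357 to 486 CPM.

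Genes of S phase and of G2 and mitosis, which took no part in the rule, followed the same split. The S phase list, without gate genes, took a median of 26.5 UMIs per 10000 in F592A and 28.8 in WT multi-gene members. It took 3.83 in F592A and 4.00 in WT Mki67-led members, close to the 3.42 and 3.63 of other macrophages. The G2 and mitosis list took 79.3 in F592A and 82.9 in WT multi-gene members, 2.99 in F592A and 4.20 in WT Mki67-led members, and 2.74 and 3.18 in other macrophages. Above the 95th percentile of other macrophages on either list stood 39 of 40 F592A and 69 of 70 WT multi-gene members, against 2 of 37 F592A and 5 of 61 WT Mki67-led members. In the other direction, 13 of 1403 F592A and 24 of 2113 WT other macrophages had at least 2 UMIs of Top2a, Cenpf and Ube2c without passing the gate. Where cells stand in the cycle was not assigned.

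**Figure D3:**
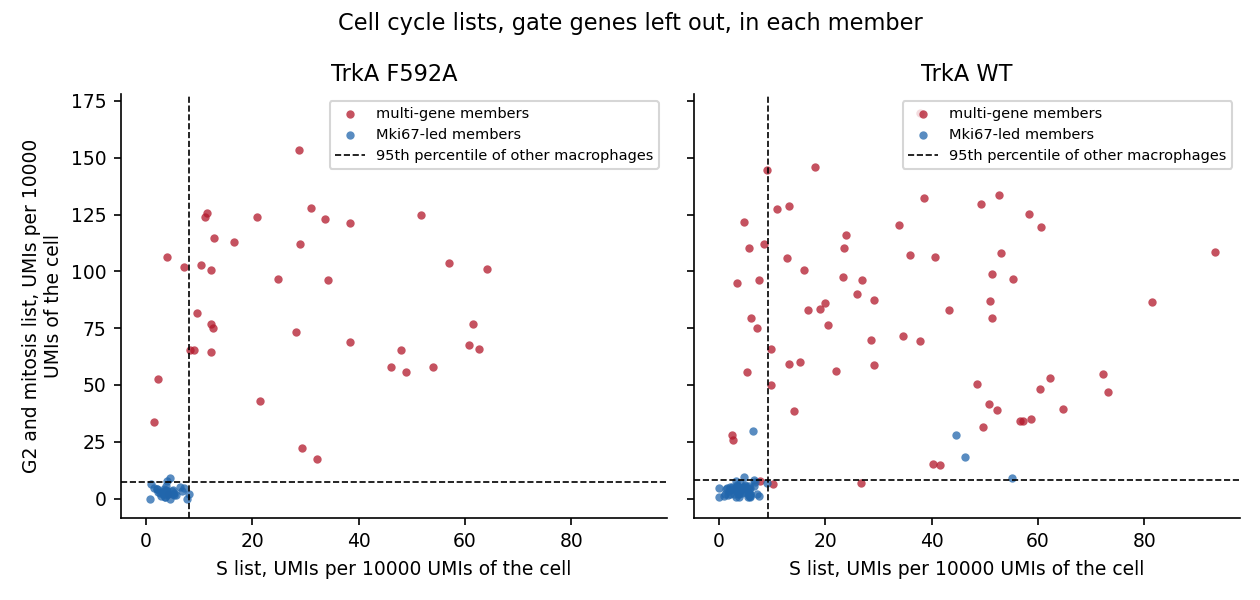
UMIs of the S phase list (x axis) and of the G2 and mitosis list (y axis), each per 10000 UMIs of the cell and without gate genes, in every gated macrophage of TrkA F592A (left) and TrkA WT (right). Dashed lines mark the 95th percentile of other macrophages; 2 of 37 F592A and 5 of 61 WT Mki67-led members (blue) pass either line, against 39 of 40 and 69 of 70 multi-gene members (red).

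Under the gate of 6 UMIs, the share of gated cells among macrophages had overlapping intervals in the 2 libraries. It was 5.20% in F592A (exact binomial 95% interval 4.13 to 6.46) and 5.84% in WT (4.90 to 6.89), a ratio of 0.891 (0.678 to 1.17). Multi-gene members were 2.70% of macrophages in F592A and 3.12% in WT (ratio 0.866, 0.591 to 1.27), and Mki67-led members were 2.50% and 2.72% (ratio 0.920, 0.615 to 1.38). The interval of each of these ratios spans 1. Since F592A macrophages were deeper, each cell was also thinned to 5000 UMIs and called with at least 2 gate UMIs. Then 127 of 1401 F592A macrophages (9.06%) and 257 of 2058 WT macrophages (12.5%) were called, a ratio of 0.726 (0.593 to 0.888), with 79 F592A and 186 WT macrophages too shallow to be thinned. Most of the thinned calls came from Mki67: the share expected over all draws was 8.11% in F592A and 10.8% in WT for Mki67 alone (ratio 0.750), and 2.60% and 3.05% for Top2a, Cenpf and Ube2c (ratio 0.853). Thinned to 10000 UMIs and called with at least 3 gate UMIs, 118 of 1153 F592A and 192 of 1277 WT macrophages were called. Their ratio was 0.681 (0.549 to 0.844). The intervals of both thinned ratios lay below 1. Of neutrophils before thinning, 1 of 132 in F592A and 0 of 196 in WT reached 6 gate UMIs, at median depths of only 3066.5 and 2502.5 UMIs. Thinned to 5000 UMIs, 1 of 20 F592A and 1 of 5 WT neutrophils were called, too few to compare. Stromal cells past the gate were 2.79% of stromal cells in F592A and 5.36% in WT, a ratio of 0.520 (0.429 to 0.630), and whether the macrophage and stromal ratios differ was not tested.

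Against other macrophages of their own library, gated macrophages were at least 2-fold higher in both libraries for 228 of 5158 genes (4.42%) and at least 2-fold lower for 12 (0.233%), among genes with at least 100 UMIs and at least 20 CPM in the higher group. The counts were 135 higher and 20 lower against other macrophages matched on UMIs per cell, 80 and 12 with all cells thinned to 5000 UMIs, and 162 and 25 under median-of-ratios factors. A gate of 4 UMIs gave 136 and 5, and a gate of 10 UMIs gave 388 and 54. In F592A alone 5.67% were higher and 0.764% lower, and in WT alone 6.92% and 0.678%. The 12 highest named genes act in mitosis, DNA synthesis or chromatin packing. The gate chose cells by genes of the cell cycle, so the high rank of such genes is given as a description. All 12 of these genes reached the limit of 20 CPM in gated macrophages and not in other macrophages. They thus entered only through the cells in which they were high. Pbk, a mitotic kinase, had 98.8 CPM in F592A and 75.2 CPM in WT gated macrophages, against 0 CPM in F592A and 0.172 CPM in WT other macrophages, a log2 ratio of at least 9.32 in F592A (against a floor of 3 UMIs) and of 8.77 in WT. Hmmr, which organises the spindle, had 74.5 CPM in F592A and 71.8 CPM in WT, against 0.257 and 0.129 CPM in other macrophages (log2 8.18 and 9.12). Ccna2, the cyclin of S and G2 phase, had 76.5 CPM in F592A and 82.2 CPM in WT, against 0.360 and 0.387 CPM (log2 7.73 in both). The linker histone gene Hist1h1b was the most abundant of the 12 highest, with 340 CPM in F592A and 415 CPM in WT, against 1.90 and 2.63 CPM (log2 7.48 and 7.31). The replication clamp partner Pclaf had 213 CPM in F592A and 218 CPM in WT (log2 7.27 and 7.10), and Rrm2, the subunit of ribonucleotide reductase that makes DNA precursors, had 75.2 and 96.1 CPM (log2 6.93 and 6.60). Nusap1, Kif11, Birc5, Knl1, Spc24 and Prc1, which act on the spindle, the kinetochore or the dividing cell's midzone, had log2 ratios of 5.92 to 8.42. All of these genes were at their high levels in multi-gene members, where Birc5 reached 376 CPM in F592A and 392 CPM in WT, against 0 and 5.67 CPM in Mki67-led members.

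**Figure D4:**
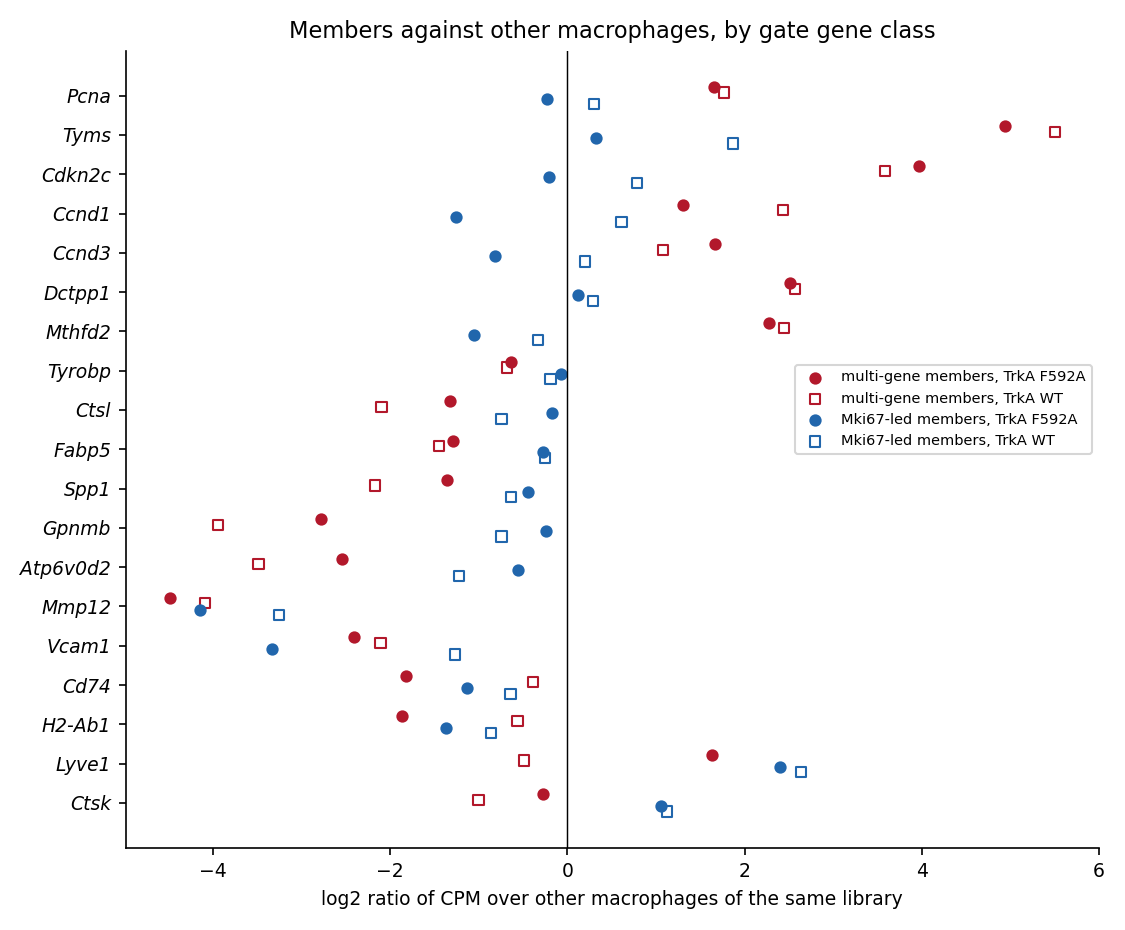
Log2 ratio of CPM over other macrophages of the same library (x axis) for 19 genes (y axis) in multi-gene members (red) and Mki67-led members (blue) of TrkA F592A (filled circles) and TrkA WT (open squares). Tyms lies at 4.94 and 5.50 in multi-gene members, Mmp12 lies below -3 in all 4 groups, and Gpnmb is at -2.78 and -3.95 in multi-gene members but -0.24 and -0.74 in Mki67-led members.

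Set against other macrophages separately, multi-gene members had 442 of 5323 genes at least 2-fold higher in both libraries (8.3%) and 75 lower (1.41%). Mki67-led members had 3 of 4840 higher (0.062%), which were Lyve1, Mis18a and Ctsk, and 13 lower (0.269%). Lists were counted over genes with at least 100 UMIs in other macrophages of each library, so that no gene entered through the cells in which it was high. Of 8097 such genes, 15.4% were at least 1.5-fold higher in both libraries and 5.79% lower in multi-gene members, and 1.17% were higher and 2.48% lower in Mki67-led members. Over genes with at least 100 UMIs in both compared groups together, the shares were 16.4% and 5.66% in multi-gene members and 1.25% and 2.47% in Mki67-led members. The lists below are read against the first of these shares and were chosen with results of these data known. Multi-gene members also held UMIs of other cell types. Endothelial and mural genes summed to 313 CPM in F592A and 827 CPM in WT multi-gene members, and 283 and 243 CPM in other macrophages. Stromal genes outside the rule summed to 621 CPM in F592A and 1533 CPM in WT, and 745 and 1001 CPM in other macrophages. The part of such UMIs in the ratios below was not tested.

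The S phase list of 43 genes summed to 2836 CPM in F592A and 3273 CPM in WT multi-gene members, 395 and 616 CPM in Mki67-led members, and 392 and 421 CPM in other macrophages. Other macrophages had enough UMIs for 19 of the 43 genes, and all 19 were at least 1.5-fold higher in multi-gene members (median log2 2.59 in F592A and 2.92 in WT, beside 0.15 and 0.19 over all genes). Tyms, which makes thymidylate, had 122 CPM in F592A and 127 CPM in WT multi-gene members, against 3.96 and 2.80 CPM in other macrophages. Mcm5, part of the replicative helicase, had 73.8 CPM in F592A and 84.7 CPM in WT, against 3.24 and 3.57 CPM. Tyms and Mcm5 had fewer than 100 UMIs in other macrophages of each library. They were thus not among the 19 and are given as a description. Pcna, the replication clamp, was present in all groups, with 378 CPM in F592A and 395 CPM in WT multi-gene members and 120 and 116 CPM in other macrophages, so its log2 ratio was only 1.66 and 1.77. In Mki67-led members, 1 of the same 19 genes was higher and 2 were lower, and Pcna had 102 CPM in F592A and 143 CPM in WT.

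The G2 and mitosis list of 60 genes summed to 8344 CPM in F592A and 7829 CPM in WT multi-gene members, 305 and 536 CPM in Mki67-led members, and 314 and 358 CPM in other macrophages. Other macrophages had enough UMIs for only 11 of them, of which 10 were at least 1.5-fold higher in multi-gene members and 0 in Mki67-led members. The exception, named after its values were seen, was Pttg1, the securin that keeps sister chromatids together until anaphase, with 39.5 CPM in F592A and 24.7 CPM in WT multi-gene members against 31.8 and 30.5 CPM in other macrophages. Cdk1, the kinase that drives entry into mitosis, had 288 CPM in F592A and 270 CPM in WT multi-gene members, 0 and 10.2 CPM in Mki67-led members, and 3.60 and 5.85 CPM in other macrophages. Ccnb1, its cyclin partner, had 124 CPM in F592A and 109 CPM in WT multi-gene members, against 0.360 and 1.72 CPM in other macrophages. Cdk1 in F592A and Ccnb1 in both libraries had fewer than 100 UMIs in other macrophages. Neither gene was thus among the 11, and both are given as a description. Of replication-dependent histone genes, 7 of 8 were higher in multi-gene members. Of the nucleotide synthesis list, 12 of 17 were higher in multi-gene members, and Dctpp1, which clears damaged nucleotides, had 112 CPM in F592A and 138 CPM in WT against 19.6 and 23.1 CPM.

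Among regulators of the cycle, 12 of 19 measured genes were at least 1.5-fold higher in multi-gene members. Ccnd1, a D-type cyclin, had 77.9 CPM in F592A and 104 CPM in WT multi-gene members, against 31.6 and 19.3 CPM in other macrophages (log2 1.30 and 2.44). Ccnd3 had 64.4 CPM in F592A and 56.5 CPM in WT, against 20.3 and 26.6 CPM (log2 1.67 and 1.08). Ccnd2 had 17.7 CPM in F592A and 62.1 CPM in WT, against 13.9 and 14.0 CPM. Of Cdk inhibitors and p53 targets, 3 of 20 were higher and 3 lower. Cdkn2c, an inhibitor of the cyclin D kinases, was among the higher ones, with 89.4 CPM in F592A and 111 CPM in WT against 5.70 and 9.21 CPM. Cdkn1a, the p21 inhibitor, was close to its level elsewhere, with 710 CPM in F592A and 717 CPM in WT multi-gene members and 774 and 802 CPM in other macrophages.

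Of the 25 macrophage identity genes, 8 were at least 1.5-fold lower in multi-gene members in both libraries, 1 was higher and 16 passed in neither direction (median log2 -0.50 in F592A and -0.53 in WT). In Mki67-led members 0 of 25 passed in either direction. Mpeg1, a pore-forming protein of phagosomes, was lower, with 161 CPM in F592A and 160 CPM in WT multi-gene members and 412 and 404 CPM in other macrophages. Cd14, a coreceptor for bacterial lipopolysaccharide, had 939 CPM in F592A and 1191 CPM in WT, against 2142 and 2280 CPM. The 1 higher gene was the fractalkine receptor gene Cx3cr1, with 118 CPM in F592A and 50.8 CPM in WT against 68.9 and 32.1 CPM. Adgre1, the F4/80 antigen, did not pass, with 245 CPM in F592A and 243 CPM in WT against 345 and 329 CPM. Of 29 macrophage transcription factor genes, 4 were lower and none higher. Other macrophages had enough UMIs for 13 genes of the monocyte and early macrophage list. Of these, 4 were at least 1.5-fold lower in multi-gene members and 2 higher (median log2 -0.16 in F592A and -0.22 in WT). Spn, the CD43 sialoglycoprotein of leukocytes, is in that list but had too few UMIs in other macrophages to be among the 13. It is given as a description, with 30.1 CPM in F592A and 25.4 CPM in WT multi-gene members and 3.80 and 3.27 CPM in other macrophages.

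Genes of lipid-associated macrophages, a state known for lysosomal and lipid-handling genes, were lower in multi-gene members for 12 of 23 measured genes and higher for none (median log2 -0.74 in F592A and -0.89 in WT). Other macrophage lists also had lower genes there, beside 5.79% of all genes. These were 9 of 25 inflammatory cytokine and chemokine genes (2 higher) and 7 of 25 phagocytosis and complement genes (0 higher). They were also 6 of 24 resident and alternatively activated genes (0 higher) and 6 of 19 Csf1 and growth factor receptor genes (1 higher). Whether the lists differ was not tested. Gpnmb, a lysosomal glycoprotein, had 35.3 CPM in F592A and 26.8 CPM in WT multi-gene members, 206 and 247 CPM in Mki67-led members, and 244 and 414 CPM in other macrophages. Spp1, the secreted protein osteopontin, had 494 CPM in F592A and 556 CPM in WT multi-gene members, 929 and 1606 CPM in Mki67-led members, and 1267 and 2500 CPM in other macrophages. Mmp12, an elastase of macrophages encoded at chr9:7344381-7369499 on the plus strand (GENCODE on GRCm38), was low in both kinds of gated cells, with 5.20 CPM in F592A and 6.35 CPM in WT multi-gene members, 6.59 and 11.3 CPM in Mki67-led members, and 117 and 108 CPM in other macrophages. Over all gated macrophages Mmp12 was the lowest named gene (log2 -4.35 in F592A and -3.71 in WT). Vcam1, an adhesion receptor, followed with 15.3 CPM in F592A and 23.9 CPM in WT against 99.5 and 79.2 CPM, and Atp6v0d2, Mmp19, Thbd, Gpnmb, Fcgr4, Ccl8 and Rgs1 had log2 ratios between -1.03 and -2.19. Of 12 lower genes, 9 were open to naming. Vcam1 was also present in stromal cells outside the gate, at 120 CPM in F592A and 134 CPM in WT.

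Of 8 measured MHC class II genes, 3 were at least 1.5-fold lower in multi-gene members and 6 in Mki67-led members, in both libraries. Cd74, the class II invariant chain, had 1394 CPM in F592A and 2877 CPM in WT multi-gene members, 2239 and 2409 CPM in Mki67-led members, and 4931 and 3764 CPM in other macrophages. Of 42 oxidative phosphorylation genes, 10 were higher in multi-gene members (median log2 0.52 in F592A and 0.50 in WT), beside the 15.4% of all genes, none was lower, and none passed in Mki67-led members or over all gated macrophages. Of 23 glycolysis and hypoxia genes, 3 were higher and 4 lower in multi-gene members (median log2 -0.04 in F592A and 0.11 in WT), and none passed in Mki67-led members. Interferon response genes were lower for 7 of 20 in Mki67-led members (median log2 -0.40 in F592A and -0.52 in WT) and for 6 of 20 in multi-gene members. The sum of the interferon list in Mki67-led members was nearly unchanged in F592A, with 1139 CPM against 1146.5 CPM in other macrophages. In WT it was 1145 against 1387 CPM. Lyve1, a hyaluronan receptor of resident macrophages and 1 of the 3 genes higher in Mki67-led members, had 125 CPM in F592A and 160 CPM in WT there, against 23.7 and 25.7 CPM in other macrophages. Of its 167 UMIs in WT gated macrophages, 124 were in 1 cell.

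Between genotypes, gated macrophages of F592A were at least 2-fold higher than those of WT for 27 of 4613 genes (0.585%) and at least 2-fold lower for 55 (1.19%). In other macrophages the shares were 0.261% higher and 0.301% lower. By kind of cell they were 0.778% higher and 2.15% lower in multi-gene members and 0.657% in either direction in Mki67-led members. The split depended on scaling, with 35 higher and 45 lower under TMM factors, 39 and 44 under median-of-ratios factors, and 42 and 42 with Gm42418 left out of the totals. The number of lower genes also changed with the cells kept. It was 33 when Scrublet doublets were left out and 34 at a collagen limit of 0.5%, and the cause was not tested. Of the 55 lower genes, 36 had more than 4 times their highest macrophage level in another cell group, among them Tagln, Acta2 and collagen genes, and were not open to naming. All 11 measured stromal genes and all 4 measured endothelial or mural genes were at least 1.5-fold lower in F592A. The stromal list summed to 602 CPM in F592A and 1260 CPM in WT gated macrophages (745 and 1001 CPM in other macrophages), and 5 cells held 36.9% of it in F592A and 48.2% in WT. The endothelial and mural list summed to 231 CPM in F592A and 584 CPM in WT, and 5 cells held 84.8% and 79.8% of it. The part of these UMIs in the results below was not tested.

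The chemokine gene Ccl8 (chr11:82115185-82116799, plus strand) was the most abundant gene of the 24 named between genotypes that was higher in F592A, with 783 CPM in F592A and 254 CPM in WT gated macrophages (log2 1.63, 95% interval 1.48 to 1.77). Its UMIs were in 34 of 77 F592A and 39 of 131 WT cells, and the log2 ratio was 1.50 without the richest cell of each library. In other macrophages Ccl8 had 1698 CPM in F592A and 804 CPM in WT (log2 1.08), so the F592A library was higher in both groups. Cxcl10, an interferon-induced chemokine, had 154 CPM in F592A and 57.4 CPM in WT gated macrophages (log2 1.43), against 41.2 and 44.8 CPM in other macrophages (log2 -0.12). The chaperone genes Hspa1b and Hspa1a, which are near-identical copies and share reads, had log2 ratios of 1.85 and 1.38, with 78.4 CPM in F592A and 21.7 CPM in WT for Hspa1b and 147 and 56.5 CPM for Hspa1a. In other macrophages the log2 ratios of Hspa1b and Hspa1a were 0.99 and 0.55. Ndufa3, a subunit of respiratory complex I, had 106 CPM in F592A and 40.9 CPM in WT (log2 1.38), with UMIs in 59 of 77 and 61 of 131 cells. Its log2 ratio in other macrophages was 0.80. The histone genes Hist1h2ap and Hist1h2ae, also near-identical to other copies, had log2 ratios of 1.48 and 1.46. Smim4, Snhg8 and Polr2l had log2 ratios of 1.64, 1.42 and 1.42, and that of Polr2l was 0.59 without its richest cell, which held 38 of 75 F592A UMIs.

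Single cells made other values. Retnla, a secreted protein of alternatively activated macrophages, had the highest ratio (log2 5.53, 141 CPM in F592A and 3.04 CPM in WT), yet its 221 F592A UMIs came from 1 cell and its 7 WT UMIs from 1 cell. Pgf, a vascular growth factor, had 71 F592A and 31 WT UMIs (log2 1.75), of which 66 and 19 were in 1 cell each, and its log2 ratio without them was -0.70. The zinc transporter gene Slc39a10 had 27 F592A and 130 WT UMIs (log2 -1.72), of which 84 WT UMIs were in 1 cell, and the ratio without the richest cells was -0.38. Of the 27 higher genes 22, and of the 55 lower genes 52, were still at least 2-fold apart without the richest cell of each library.

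Among named genes lower in F592A, Bcl2a1a, an antiapoptotic gene with near-identical copies, had 10.8 CPM in F592A and 46.5 CPM in WT gated macrophages (log2 -2.10), against 42.5 and 50.6 CPM in other macrophages. Neutrophils had 96.7 CPM of Bcl2a1a in F592A and 191 CPM in WT, and dendritic cells had 104 and 180 CPM. Rgcc, a regulator of the cell cycle, had 77.7 CPM in F592A and 228 CPM in WT (log2 -1.55), and other macrophages showed a like difference with 90.9 and 218 CPM (log2 -1.27). Tppp3, a tubulin-binding protein gene, had 234 CPM in F592A and 571 CPM in WT gated macrophages (log2 -1.29), against 129 and 298 CPM in other macrophages (log2 -1.21). Flrt3, an adhesion protein gene, had 27.4 CPM in F592A and 79.6 CPM in WT (log2 -1.54). Kcnq1ot1, Stk25, Ppa1, Txnl4a, Igf2r, Ybx3 and Timm22 had log2 ratios between -1.12 and -1.28 in gated macrophages and between -0.63 and -0.01 in other macrophages. Whether the ratios of gated and other macrophages differ was not tested.

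**Figure D5:**
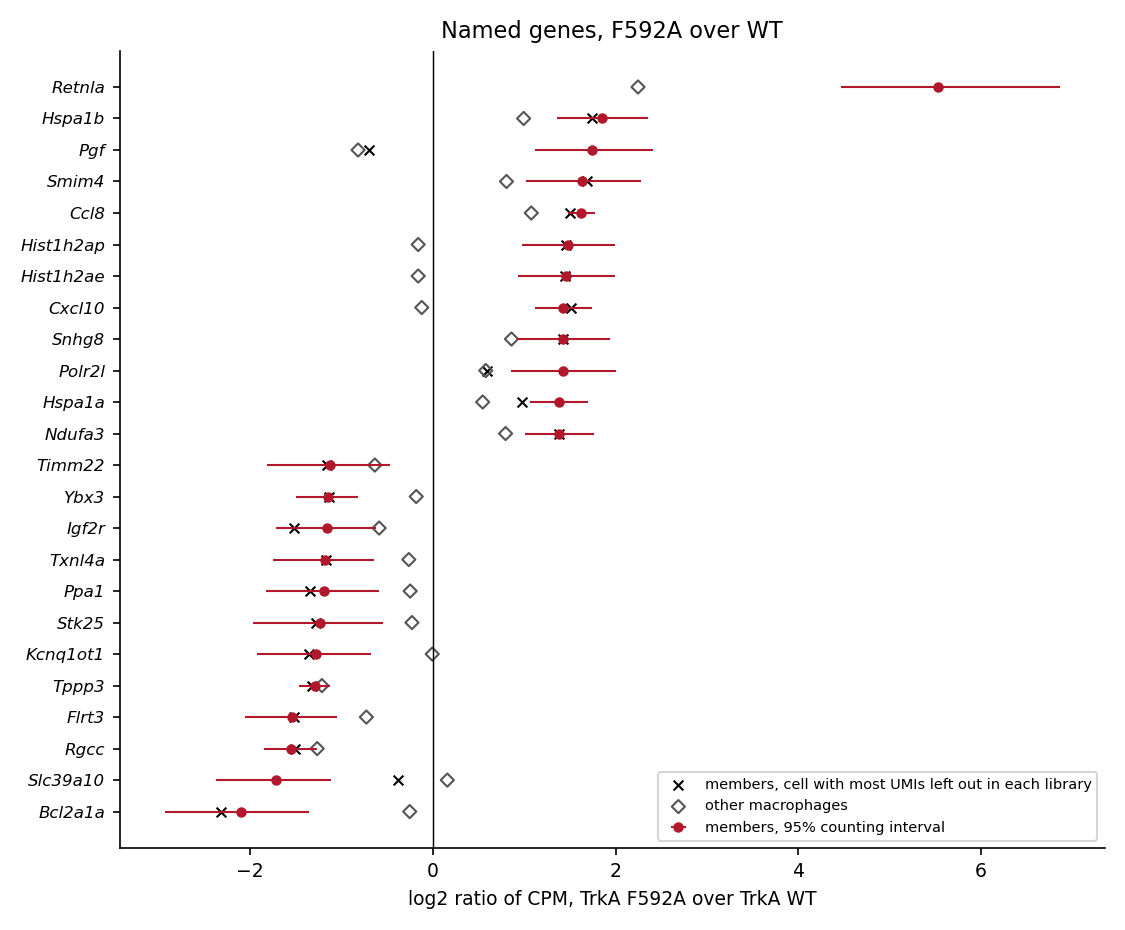
Log2 ratio of CPM, TrkA F592A over TrkA WT (x axis), for the 24 named genes (y axis) in gated macrophages (red points with 95% intervals), in the same cells without the cell richest in each gene (crosses) and in other macrophages (open diamonds). The cross of Pgf lies at -0.70 against a point at 1.75, while Rgcc and Tppp3 lie at -1.55 and -1.29 in gated and at -1.27 and -1.21 in other macrophages; Retnla has no cross because 1 cell of each library held all its UMIs.

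Over all measured genes of gated macrophages the median log2 ratio was -0.10, with 2.75% at least 1.5-fold higher and 6.76% lower in F592A. In other macrophages the same shares were 2.35% and 3.89%. Of 29 measured S phase genes 1 was higher and 7 were lower (median -0.27), and of 11 nucleotide synthesis genes 3 were lower and none higher. Of 52 G2 and mitosis genes 3 were higher and none lower (median 0.08). Of 12 histone genes 4 were higher and none lower (median 0.17), and these 4 belong to families of near-identical copies. Of the lower S phase genes, Tipin, which stabilises stalled replication forks, had 34.4 CPM in F592A and 74.4 CPM in WT (log2 -1.11), and the helicase subunit gene Mcm6 had 45.9 and 78.7 CPM (log2 -0.78). In other macrophages 2 of 29 S phase genes were lower and 2 of 9 histone genes higher. Ccna2 had 76.5 CPM in F592A and 82.2 CPM in WT (log2 -0.10, -0.45 to 0.23), and Cdk1 had 176 and 170 CPM (log2 0.05).

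Of 20 resident and alternatively activated genes, 6 were at least 1.5-fold higher in F592A gated macrophages and none lower (median 0.38). In other macrophages 5 of 26 were higher and 2 lower (median 0.22). The 6 included Retnla, whose F592A UMIs all came from 1 cell. Also among them was Maf, a transcription factor of resident macrophages, with 306 CPM in F592A and 167 CPM in WT (log2 0.88). The scavenger receptor gene Cd163 was another, with 68.8 and 27.8 CPM (log2 1.31) in 12 F592A and 18 WT cells. The fractalkine receptor gene Cx3cr1 had 82.8 CPM in F592A and 40.4 CPM in WT gated macrophages, and 68.9 and 32.1 CPM in other macrophages. Of 42 oxidative phosphorylation genes, 4 were higher and none lower (median 0.27), among them Atp5k with 171 CPM in F592A and 87.0 CPM in WT. In other macrophages 3 of 42 were higher and none lower (median 0.13), and Atp5k had a log2 ratio of 0.83. Of 20 glycolysis and hypoxia genes, 1 was higher and 2 were lower (median -0.43, and -0.31 in other macrophages). Of 23 inflammatory cytokine and chemokine genes, 1 was higher and 5 were lower, and of 21 lipid-associated genes, 1 was higher and 3 were lower. In other macrophages 2 of 26 inflammatory genes were higher and 4 lower, and 1 of 23 lipid-associated genes was higher and 7 lower.

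MHC class II genes had medians of opposite sign in gated and other macrophages. Of 7 measured genes, 4 were at least 1.5-fold lower in F592A gated macrophages and none higher (median -0.59), while in other macrophages none of 8 passed in either direction (median 0.28). Cd74 had 1721 CPM in F592A and 2698 CPM in WT gated macrophages (log2 -0.65), against 4931 and 3764 CPM in other macrophages (log2 0.39). H2-Ab1, a class II beta chain, had 608 CPM in F592A and 995 CPM in WT gated macrophages (log2 -0.71), against 1923 and 1587 CPM in other macrophages (log2 0.28). By kind of cell, 6 of 7 genes were lower in multi-gene members (median -0.93, with 3.86% of measured genes higher and 8.08% lower) and 1 of 7 in Mki67-led members (median -0.09, with 3.94% of measured genes higher and 6.36% lower). Cd74 UMIs were in 48 of 77 F592A and 73 of 131 WT gated macrophages, and the log2 ratio was -0.79 without the richest cell of each library. The difference between the 2 ratios was not tested.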

How the data were processed

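The submitters deposited UMI counts per barcode for 32285 features in 2 libraries, made with Cell Ranger 6.0.1 per the file headers and with Cell Ranger 2.1.1, Seurat and mm10 per the submitters' processing notes (the 2 versions differ, and no source settles which was used). From these deposited counts, UMIs were summed per library and cell group and given as CPM with exact Poisson intervals. Shares carry exact binomial (Clopper-Pearson) intervals, ratios of shares Katz intervals and log2 ratios conditional binomial intervals, all at 95%. Genes needed 100 UMIs over the compared groups and, for 2-fold counts, 20 CPM in the higher group. Lists of multi-gene and Mki67-led members used genes with 100 UMIs in other macrophages of each library, a choice made after the values were seen. Up to 12 genes per direction were named by size, leaving out gate genes, mitochondrial, ribosomal, haemoglobin, immunoglobulin, sex-linked and provisional names, and genes whose highest level in gated and other macrophages was below 1/4 of that in another cell group. The members and 30 gene lists were chosen with earlier results of these data known. Scrublet (scanpy 1.11.5) called 220 of 8664 F592A and 371 of 11599 WT barcodes doublets, which were kept. Alternatives included edgeR 4.0.16 scaling factors. The ratio calculation was run on simulated Poisson counts of summed groups with planted changes. That setting had no variation between cells, so it does not cover UMIs held in single cells. Sequences came from RefSeq tables on GRCm38.p6.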

Additional observations from a re-analysis of the deposited data

Results flagged for a closer look

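Pgf differed in direction between gated and other macrophages. Its log2 ratio of F592A over WT was 1.75 in gated macrophages, with 45.2 CPM in F592A and 13.5 CPM in WT, and -0.82 in other macrophages, with 5.45 CPM in F592A and 9.60 CPM in WT. The difference was not tested. In gated macrophages 66 of the 71 F592A UMIs and 19 of the 31 WT UMIs were in 1 cell each.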

How the results depend on the processing

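No paired analysis was possible because each genotype had 1 library and no replicate numbers, and no replicate could be left out. The ratio of shares ran from 0.681 (cells thinned to 10000 UMIs) to 1.06 (a gate of 10 UMIs) over the alternatives. Counts that moved by more than 1.5 times were as follows, and the cause was not tested. A gate of 4 UMIs gave 136 genes higher and 5 lower in gated than in other macrophages, and a gate of 10 UMIs gave 388 and 54. Thinning all cells to 5000 UMIs gave 80 higher there, and between genotypes 8 higher and 16 lower in F592A, with fewer genes measured. Median-of-ratios scaling gave 25 lower in gated macrophages. Without a UMI minimum, 50 genes were higher and 114 lower in F592A. Leaving out Scrublet doublets gave 33 lower in F592A, and a collagen limit of 0.5% gave 34. Of alternatives chosen after seeing the data, a gate of 6 UMIs without Mki67 gave 478 higher and 108 lower in gated macrophages, multi-gene members with the rest counted as other macrophages gave 439 and 79, and other macrophages matched on depth gave 135 and 20. Leaving Gm42418 out of the totals gave 42 higher in F592A. The genotype ratio of Pgf changed sign, to -3.37 with the gate without Mki67 and to -0.71 without its richest cells, whose other UMIs stayed in the totals here (-0.70 with them out). Of 380 values of the genotype genes, 27 (in 13 genes) were under 2-fold, and of 672 values of the genes between gated and other macrophages, 14 (in 8 genes). TMM and median-of-ratios scaling moved log2 ratios by 0.10 and 0.11 between genotypes, and by -0.13 and -0.19 in F592A and -0.17 and -0.26 in WT between gated and other macrophages.

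Depth limits what can be said of low genes: 100 UMIs over both groups left 4613 genes measured between genotypes. Cells of 1 pool are not replicates, so differences between mice and between the genotypes cannot be told apart. In droplets, RNA of other cells adds UMIs, and its part was not tested.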
